A study of Rattus norvegicus with 10 samples.

Results

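Of the 10 hippocampal libraries, 3 held more than 10 FPKM of Col1a1, a chain of type I collagen, and 7 held less. FPKM is the number of sequenced fragments scaled to the length of the transcript and to the size of the library. The 3 Col1a1-high libraries were sham 2 at 20.3 FPKM, sham 4 at 34.3 FPKM and TBI 1 at 30.5 FPKM. The 7 Col1a1-low libraries were sham 1, sham 3, sham 5 and TBI 2 to TBI 5, which ran from 1.54 to 3.54 FPKM with a median of 2.80. Nothing lay near the threshold: the highest library below it was TBI 3 at 3.54 FPKM, and the lowest above it was sham 2. The split was made from the measured values themselves. Differences between the classes are therefore given as descriptions without a test, and tests are kept for the injury groups.

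The libraries came from male Sprague-Dawley rats of 200 to 240 g, with 5 sham-operated and 5 injured by fluid percussion, in which a fluid pulse strikes the brain through an opening in the skull (traumatic brain injury, TBI). No genetic change is named for either group, and no age is given. Hippocampus was taken 1 week after surgery, after a learning test, and poly-A RNA was sequenced. The Col1a1-high class thus holds 2 sham libraries and 1 TBI library, and the Col1a1-low class 3 sham and 4 TBI libraries. Separate animals are not stated for the libraries, so every p-value below measures the spread between libraries, which may be technical. Read depth is unknown, since FPKM values hold no counts, and precision comes only from that spread. Summed FPKM ran from 523239 to 629660 per library, and 14419 to 15365 loci per library exceeded 1 FPKM. The glutamate transporter Slc17a7, abundant in hippocampal principal neurons, was at 552 to 1078 FPKM in all 10 libraries.

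The meninges are layers of connective tissue that wrap the brain and line its fissures, including the fissure beside the hippocampus. Their fibroblasts make fibrillar collagen, small leucine-rich proteoglycans that coat collagen fibrils, insulin-like growth factor 2 (Igf2), retinoic acid and prostaglandin D synthase, and they carry transporters that clear organic anions and amino acids from the cerebrospinal fluid. Arteries that run through the meninges bring smooth muscle, and resident macrophages sit along them. In RNA from a whole piece of tissue, more cells of a type and more RNA per cell cannot be told apart.

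Of the 5 marker genes named for meninges and matrix, Col1a1 made the classes and so had to separate them, and 3 of the other 4 separated them too. Col3a1, the chain of type III collagen, was at 8.95 FPKM in sham 2, 31.3 in sham 4 and 15.6 in TBI 1, against 0.659 to 1.81 (median 1.16) in the Col1a1-low libraries. Fibromodulin (Fmod), a proteoglycan that guides collagen fibril assembly, was at 35.2, 16.98 and 26.3 FPKM in the same order of libraries, which is kept for every such set of 3 values below, against 2.03 to 10.9 (median 5.30). Igf2 was at 377, 244 and 445 FPKM, against 10.6 to 165 (median 89.9). In these 3 genes each Col1a1-high library lay above each Col1a1-low library. Decorin (Dcn), a further fibril-coating proteoglycan, did not separate them. It was at 25.5, 44.5 and 56.4 FPKM, against 15.8 to 27.8 (median 20.6), with sham 1 above sham 2. Of the 4 markers that the split did not use, 3 thus separated the classes. The markers were chosen with earlier results of these data known, so this is not independent evidence for the label of meninges and matrix. The classes are called by Col1a1 here.

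Differences were computed on log2(FPKM + 0.5), as Col1a1-high minus Col1a1-low with the injury group as a covariate, and this scale understates the differences of low genes. On it Col3a1 differed by 3.36, Col1a1 by 3.35, Igf2 by 3.21, Fmod by 2.43 and Dcn by 1.02. Mean levels were 28.3 ± 7.24 FPKM in the Col1a1-high class and 2.55 ± 0.732 in the Col1a1-low class for Col1a1 (SD, n = 3 and 7), and 26.2 ± 9.14 and 5.82 ± 3.71 for Fmod. Within the sham libraries alone the difference was 3.46 for Col1a1 and 2.79 for Fmod, and within the TBI libraries, where TBI 1 stands alone, it was 3.17 and 1.91.

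**Figure D1:**
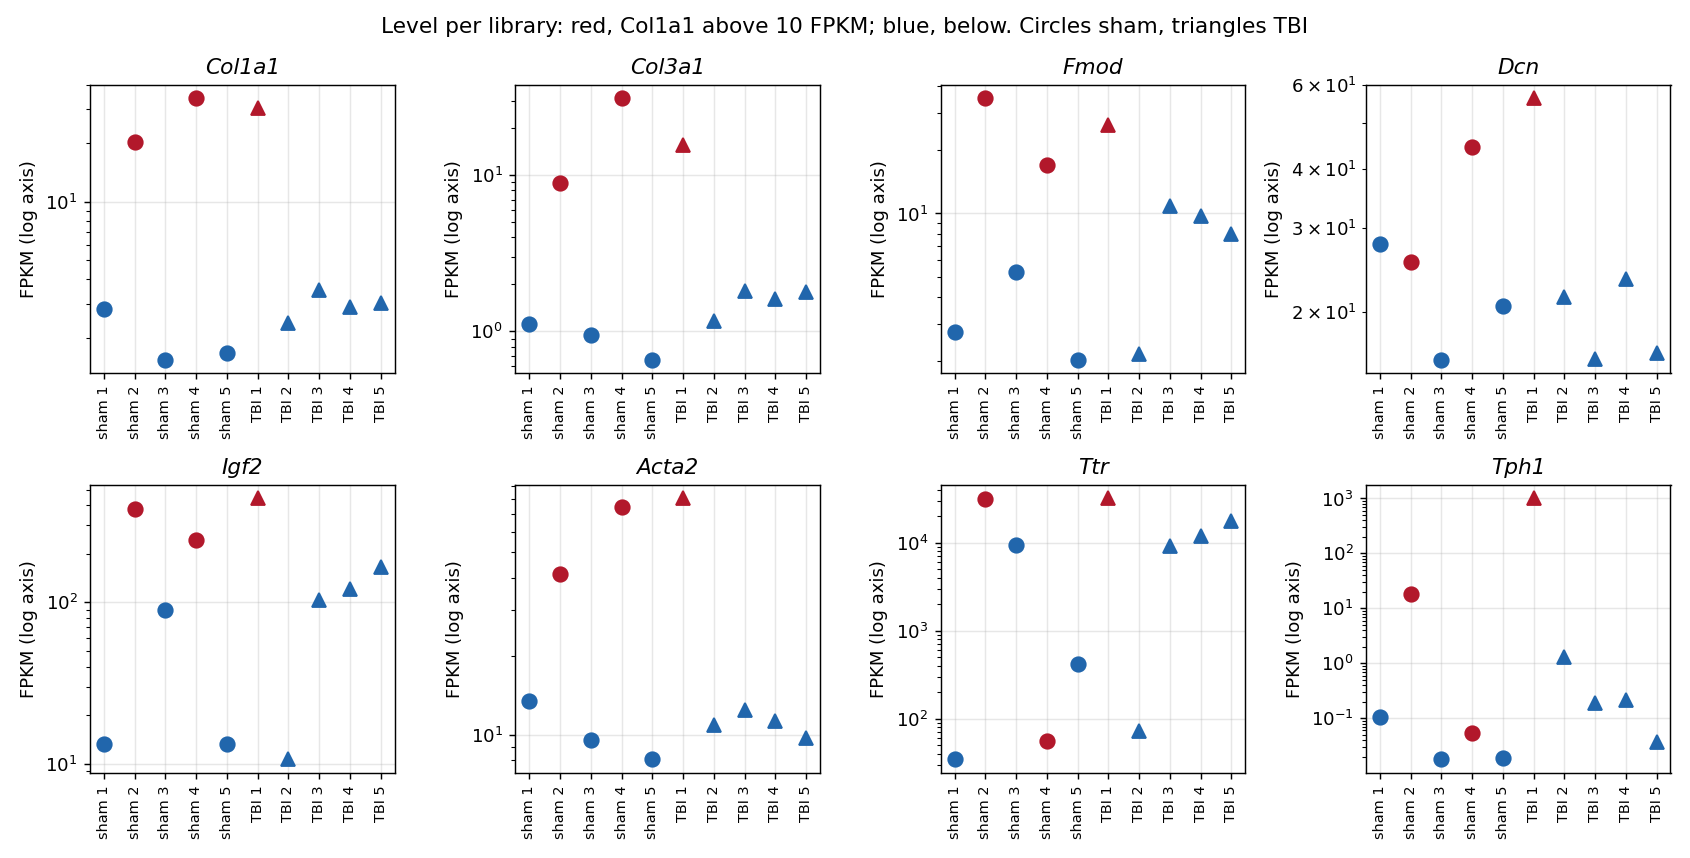
FPKM on a log axis of the 5 marker genes, Acta2, Ttr and Tph1 in each of the 10 libraries, with Col1a1-high libraries in red, Col1a1-low libraries in blue, sham as circles and TBI as triangles. Col1a1, Col3a1, Fmod, Igf2 and Acta2 have all 3 red points above all 7 blue points, Dcn overlaps, Ttr runs from 34.5 FPKM upward in both colours, and Tph1 stands at 1030 FPKM in TBI 1.

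A locus was counted as higher when all 3 Col1a1-high libraries lay above all 7 Col1a1-low libraries and the difference was at least 1 on the log2 scale, and as lower in the mirror case. Of 16889 loci with a mean of at least 0.5 FPKM, 262 counted as higher, 1.55%, Col1a1 among them by construction, and 8 as lower, 0.0474%. The mean was taken over all libraries, so a gene can pass this filter through the Col1a1-high libraries alone. Col14a1, Bmp5, Wnt6 and Nyx below did so, with Col1a1-low means of 0.275, 0.127, 0.169 and 0.185 FPKM. So did Cnn1, Defb1, Actg2, Inmt, Bsx and Fxyd2, with Col1a1-low means of 0.211, 0.315, 0.126, 0.492, 0.0228 and 0.460 FPKM. They are examples, and list counts and medians include such genes. The median difference over all 16889 loci was -0.03. Without the condition on size, 625 loci were higher without overlap (3.7%) and 412 lower (2.44%). Of the 262 higher loci, 226 name a single gene, and the median difference over the 262 was 1.54. Within the sham libraries alone 214 of the 262 were higher by at least 1, within the TBI libraries 240, and in both 192. Over all loci, 285 were higher by at least 1 in both groups, 1.69%, and 11 lower by at least 1, 0.0651%. The Col1a1-high libraries were not equally high: of the 3, sham 4 was the highest at 130 of the 262 loci, TBI 1 at 124 and sham 2 at 8, and sham 2 was the lowest at 197. Since these loci were chosen on the same contrast, nothing further is read from the counts. The share of 1.55% over all loci is the value to set beside each count of higher list members below. A list with 1 higher member is not read as differing from that share.

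Promoter sequences are shown for 3 of the 30 named genes with the largest differences: a matrix gene, a retinoid gene of meningeal fibroblasts and a smooth muscle gene. They come from RefSeq on the rat build GRCr8 and span 250 bases before to 50 bases after the annotated start, 5′ to 3′ on the strand of the gene. Fmod lies at chr13:48045317-48045616 on the plus strand, Crabp2 at chr2:175714612-175714911 on the plus strand and Acta2 at chr1:241172454-241172753 on the minus strand. Capitals mark the letters TATAA, the core of the TATA box, and CCAAT, the core of the CCAAT box, searched on both strands.
Fmod: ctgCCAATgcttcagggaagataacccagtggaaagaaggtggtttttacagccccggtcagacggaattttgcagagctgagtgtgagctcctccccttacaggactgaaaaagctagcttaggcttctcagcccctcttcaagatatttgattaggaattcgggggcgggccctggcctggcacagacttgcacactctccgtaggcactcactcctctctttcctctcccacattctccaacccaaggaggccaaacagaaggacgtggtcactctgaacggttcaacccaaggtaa
Crabp2: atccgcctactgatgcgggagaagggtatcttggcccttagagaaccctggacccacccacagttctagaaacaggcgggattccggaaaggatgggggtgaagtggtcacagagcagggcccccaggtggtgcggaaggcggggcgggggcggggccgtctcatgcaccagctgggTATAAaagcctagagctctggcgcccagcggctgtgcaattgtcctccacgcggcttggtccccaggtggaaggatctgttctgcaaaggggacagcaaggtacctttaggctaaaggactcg
Acta2: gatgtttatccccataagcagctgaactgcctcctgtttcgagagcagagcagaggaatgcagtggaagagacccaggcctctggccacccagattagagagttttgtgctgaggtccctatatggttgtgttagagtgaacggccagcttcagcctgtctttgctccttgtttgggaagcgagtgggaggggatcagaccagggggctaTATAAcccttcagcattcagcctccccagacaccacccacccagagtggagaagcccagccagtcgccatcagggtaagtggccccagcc
Fmod held CCAAT and no TATAA, and Crabp2 and Acta2 held TATAA and no CCAAT. The higher loci carry 225 names, of which 153 had a promoter in the table. TATAA stood in 33 of the 153 (21.6%) and in 12.7% of 8238 promoters of all genes measured here. CCAAT stood in 62 (40.5%) and in 37.2%. A match is a run of letters and not a measured binding site.

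Collagens differed from chain to chain. Of 11 listed fibrillar collagens, 8 passed the filter on low values, among them Col1a1, which counts as higher by construction. Of the other 7, 1 counted as higher, Col3a1, and their median difference was 0.31, beside -0.03 over all loci. Col5a1, a chain of type V collagen that nucleates fibrils, was at 2.66, 3.78 and 2.78 FPKM in sham 2, sham 4 and TBI 1, against 0.691 to 2.83 (median 2.03), and the classes overlapped. The second chain of type I collagen, Col1a2, is listed at 0 in every library. Of 17686 loci that name a single gene, 2951 are listed at 0 in all 10 libraries, and 746 of these carry a name that stands on more than 1 locus. Such zeros are therefore not read as absence of the transcript.

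Among 19 other collagens 5 passed the filter, and 2 counted as higher (40%, beside 1.55% of all loci). Col6a2, a chain of the beaded filaments around cells, was at 15.1, 17.3 and 18.6 FPKM, against 1.51 to 8.97 (median 4.24). Col14a1, which binds fibril surfaces, was at 0.802, 1.18 and 1.95, against 0.194 to 0.366 (median 0.266). Col14a1 passed the filter only through the Col1a1-high libraries, and its difference of 1.24 is the median of the 5. Both genes separated the classes. Col8a1, a short-chain collagen of vessels and basement membranes, did not: it was at 9.996 FPKM in sham 2, 1.30 in sham 4 and 45.1 in TBI 1, against 0.0610 to 11.3, so sham 4 lay below part of the Col1a1-low libraries.

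The sheet-forming matrix of basement membranes was measured by 9 of 21 listed genes, of which 4 counted as higher (median difference 0.99). Col18a1, the precursor of endostatin, was at 9.57, 13.1 and 10.05 FPKM, against 2.83 to 4.93 (median 3.44). Nidogen 2 (Nid2), which links laminin to type IV collagen, was at 2.51, 4.35 and 3.84, against 0.662 to 1.11 (median 0.872). Laminin beta 2 (Lamb2) was at 20.6, 16.7 and 23.01, against 7.32 to 13.9 (median 11.2). In all 3 genes the classes did not overlap.

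Small leucine-rich proteoglycans, which bind the surface of collagen fibrils, had the largest median among the matrix lists. Of 14 listed, 6 passed the filter and 5 counted as higher (83.3%, beside 1.55% of all loci), with a median difference of 1.65. Lumican (Lum) was at 6.91, 15.7 and 13.9 FPKM, against 1.01 to 6.86 (median 3.51), with sham 2 just above the highest Col1a1-low library. Biglycan (Bgn) was at 25.3, 46.2 and 35.5, against 9.64 to 17.8 (median 10.9). Prelp, which anchors basement membrane to connective tissue, was at 40.05, 26.3 and 39.2, against 9.39 to 23.8 (median 14.2). Nyctalopin (Nyx), a member best known from the retina, counted as higher through TBI 1. It was at 0.331 and 0.360 FPKM in sham 2 and sham 4 and at 9.29 in TBI 1, against 0.113 to 0.294, and its difference of 1.74 was 0.37 in the sham libraries alone. The remaining member that passed the filter was Dcn.

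Enzymes that process collagen were less uniform, with 3 of 20 measured members higher (15%, beside 1.55% of all loci) and a median difference of 0.65. Pcolce, which enhances cleavage of procollagen, was at 10.5, 12.1 and 12.1 FPKM, against 0.908 to 3.38 (median 2.64). Lysyl oxidase-like 1 (Loxl1), which crosslinks elastin, was at 12.9, 10.6 and 13.2, against 3.26 to 6.62 (median 5.13). Serpinh1, the collagen chaperone of the endoplasmic reticulum, did not overlap but differed by only 0.96. Lysyl oxidase (Lox) overlapped, with sham 2 at 1.05 FPKM below the highest Col1a1-low library at 1.28.

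In the elastic fibre list 6 of 12 measured genes counted as higher (18 listed, median difference 1.00). Elastin (Eln) was at 4.33, 10.4 and 5.39 FPKM, against 1.11 to 1.70 (median 1.33). Fibulin 1 (Fbln1) was at 37.1, 48.97 and 47.1, against 9.76 to 15.1 (median 13.01). Matrix Gla protein (Mgp), an inhibitor of calcification in vessel walls, was at 62.5, 85.2 and 129, against 16.2 to 39.1 (median 24.7). In each of the 3 the lowest Col1a1-high library lay above the highest Col1a1-low library.

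Adhesive proteins were mixed, with 5 of 16 measured genes higher and a median difference of 0.64. Fibronectin (Fn1) was at 7.97, 24.7 and 11.9 FPKM, against 4.17 to 6.08 (median 4.64). Vitronectin (Vtn), an adhesive glycoprotein, was at 38.7, 53.2 and 42.01, against 8.69 to 13.9 (median 10.8). Of the matrix proteases and their inhibitors, 3 of 20 counted as higher (median difference 0.27): the membrane protease Mmp14, differing by 1.32, and the protease inhibitors Timp1, by 1.53, and Timp3, by 1.27. Timp3, which is held in the matrix, was at 47.8, 70.5 and 68.2 FPKM, against 19.1 to 31.7 (median 25.4).

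Meningeal fibroblast genes formed the longest list. Of 52 listed genes 49 were in the table, 43 passed the filter and 24 counted as higher. That was 55.8% of those measured, beside 1.55% of all loci, with a median difference of 1.57. Prostaglandin D synthase (Ptgds), a secreted enzyme and among the most abundant transcripts of the leptomeninges, was at 2311 FPKM in sham 2, 4639 in sham 4 and 2255 in TBI 1, against 236 to 798 (median 390.2). The GABA and taurine transporter Slc6a13 was at 11.6, 24.9 and 16.5, against 1.52 to 3.22 (median 2.25). The organic anion transporter Slc22a6 was at 6.47, 13.1 and 6.72, against 0.297 to 1.19 (median 0.658). Sham 4 was the highest library in all 3 genes. Some listed genes, such as Lum, Vtn and Bmp7, stand on more than 1 list. The imino acid transporter Slc6a20, ranked by the size of its difference and not a member of the list, was at 34.1, 84.3 and 62.5 FPKM, against 5.73 to 10.3 (median 7.28). The sulfate transporter Slc13a4 was at 69.7, 40.5 and 92.8, against 2.79 to 32.6 (median 20.9), here with sham 4 the lowest of the 3.

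Genes for making and binding retinoic acid were among them. Of 18 measured genes of the prostaglandin and retinoid list, 6 counted as higher (median difference 0.79). Aldh1a2, which makes retinoic acid, was at 11.3, 23.5 and 12.6 FPKM, against 1.05 to 3.65 (median 1.91). Crabp2, which carries retinoic acid to its nuclear receptors, was at 18.5, 20.5 and 17.1, against 1.18 to 6.20 (median 2.47), with the 3 Col1a1-high libraries close together. Rbp4, which carries retinol in blood, differed by 1.67.

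Growth factor genes differed from member to member. Of 11 measured genes of the insulin-like growth factor system, 2 counted as higher, Igf2 and its binding protein Igfbp6, with a median difference of 0.34. Igfbp6 was at 10.3, 27.2 and 23.3 FPKM, against 2.32 to 5.57 (median 3.78). Igfbp2 was at 350.5, 137 and 326, but reached 180.04 FPKM in the Col1a1-low class, above sham 4. Among 40 genes of TGF-beta and BMP signalling, 3 counted as higher (7.5%, beside 1.55% of all loci) and the median difference was 0.03. All 3 were bone morphogenetic proteins. Bmp5 was at 1.19, 4.07 and 1.93 FPKM, against 0.0648 to 0.280 (median 0.107), and Bmp6 and Bmp7 differed by 1.31 and 1.88. The receptors and Smad proteins of the list did not count as higher.

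In the Wnt pathway 1 of 21 measured genes counted as higher and 1 as lower, beside 1.55% and 0.0474% of all loci. The median difference was -0.11. The ligand Wnt6 was at 2.49, 5.9996 and 2.86 FPKM, against 0.0729 to 0.273 (median 0.182). Sfrp2, a secreted protein that binds Wnt ligands, was at 1.65, 1.20 and 2.54, against 3.70 to 11.3 (median 5.61), a difference of -1.65. It was lower in each Col1a1-high library than in any Col1a1-low library.

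**Figure D2:**
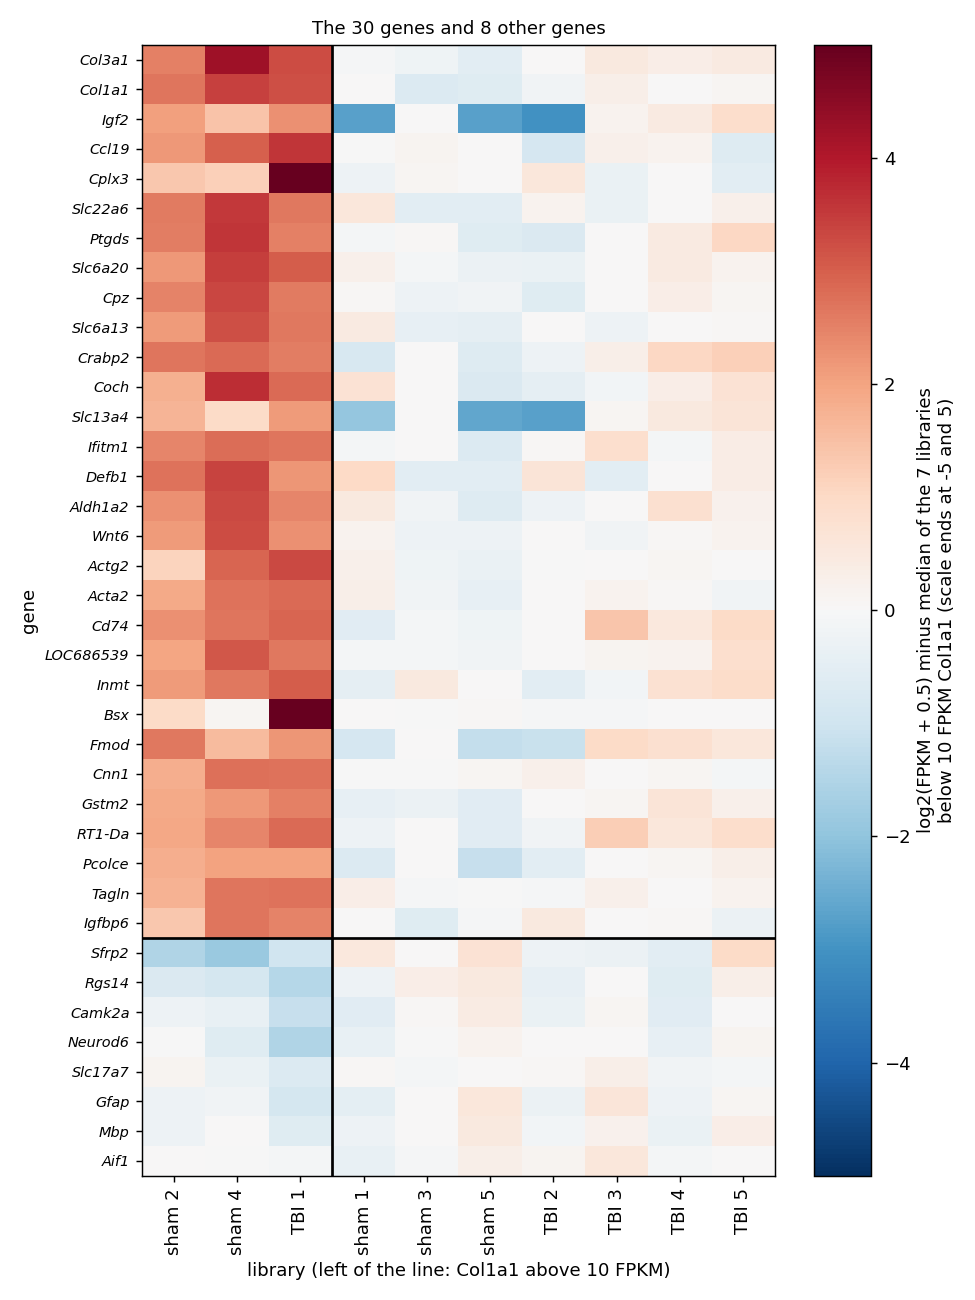
Colour gives log2(FPKM + 0.5) minus the median of the 7 Col1a1-low libraries for the 30 named genes with the largest differences (upper block) and 8 other genes (lower block), with the 3 Col1a1-high libraries left of the vertical line. The upper block is red in sham 2, sham 4 and TBI 1, with Bsx and Cplx3 deep red only in TBI 1, while the lower block is pale or blue there.

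Contractile genes of smooth muscle led the vessel wall list. Of 22 genes of the pericyte and smooth muscle list, all measured, 12 counted as higher, 54.5% beside 1.55% of all loci. The median difference was 1.14, with 0.76 in the sham libraries and 1.76 in the TBI libraries. Smooth muscle actin (Acta2) was at 41.5 FPKM in sham 2, 74.97 in sham 4 and 80.98 in TBI 1, against 8.07 to 13.5 (median 10.95). Transgelin (Tagln), an actin-binding protein of smooth muscle, was at 56.7, 109 and 112, against 15.8 to 21.01 (median 16.7). Calponin (Cnn1) was at 1.91, 4.18 and 3.98, against 0.147 to 0.325 (median 0.185). In these 3 contractile genes sham 2 was the lowest of the Col1a1-high libraries. Rgs5, a signalling regulator abundant in pericytes, was at 55.3, 70.9 and 69.97 FPKM, against 42.3 to 51.2 (median 49.5), a difference of 0.43 without overlap.

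Endothelial genes differed less, with 2 of 24 higher (8.33%, beside 1.55% of all loci) and a median difference of 0.44. Von Willebrand factor (Vwf), which is richest in larger vessels, was at 14.7, 18.8 and 11.997 FPKM, against 4.38 to 5.28 (median 4.53). VE-cadherin (Cdh5) differed by 1.04. Claudin 5 (Cldn5), the tight junction protein of brain capillaries, was at 67.2, 82.4 and 54.3 FPKM, against 45.3 to 68.5 (median 51.9), so the classes overlapped, with a difference of 0.20.

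Part of the macrophage genes of vessels and meninges counted as higher. Of 16 listed perivascular and meningeal macrophage genes 11 were in the table, 5 passed the filter and 3 counted as higher (median difference 1.39). The mannose receptor Mrc1 was at 1.53, 5.36 and 2.75 FPKM, against 0.470 to 1.17 (median 0.828). The lectin Clec10a was at 3.82, 9.62 and 4.67, against 0.728 to 1.92 (median 1.24). Factor XIII A (F13a1) was at 1.33, 4.28 and 1.79, against 0.367 to 0.821 (median 0.502). Sham 4 was the highest library in each of the 3. Pf4, a platelet and macrophage chemokine on the same list, overlapped, at 3.85, 5.83 and 8.04 FPKM, against 1.12 to 4.63 (median 1.92). Of 16 measured genes of homeostatic microglia, 11 had a negative difference, with a median of -0.14, where 54.7% of all tested loci had a negative difference, and 1 counted as higher, Olfml3, a secreted olfactomedin-like protein, which was at 7.25, 10.2 and 10.4 FPKM, against 1.27 to 2.9998. Aif1 was at 25.3, 24.2 and 23.2, against 19.2 to 36.8 (median 24.9).

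Among immune genes with the largest differences, Cd74, the invariant chain of class II histocompatibility proteins, was at 39.3, 51.2 and 60.2 FPKM, against 4.9998 to 20.7 (median 7.60). The class II gene RT1-Da was at 9.03, 13.2 and 17.1, against 1.17 to 5.28 (median 1.99). RT1 genes have near-identical copies, so its level is uncertain. The chemokine Ccl19, which draws cells that carry Ccr7, was at 6.63, 12.1 and 18.3, against 0.383 to 1.40 (median 1.09). All 3 genes separated the classes. Complement factor D (Cfd) differed by 1.92, as 1 of 2 higher genes among 18 measured complement genes (11.1%, beside 1.55% of all loci, median 0.46). In the interferon list 1 of 21 measured genes counted as higher, 4.76% beside 1.55% of all loci. It was Bst2, an antiviral membrane protein, with a difference of 1.22 (list median 0.51). Blood cell genes were not counted as higher in any of 7 cases: the shared alpha globin locus Hba1,Hba2 was at 777, 436 and 761 FPKM, against 147 to 992.

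The other genes of the leading 30 include several with less settled roles. Cochlin (Coch), a secreted protein first known from the inner ear, was at 10.3, 39.5 and 22.1 FPKM, against 1.41 to 4.68 (median 2.63). Carboxypeptidase Z (Cpz), which binds Wnt proteins, was at 5.83, 10.97 and 6.36, against 0.245 to 0.926 (median 0.645). The beta-defensin Defb1 was at 4.25, 6.91 and 2.83, against 0 to 0.946. The membrane protein Ifitm1, the methyltransferase Inmt, the glutathione transferase Gstm2, the smooth muscle actin Actg2 and the unnamed gene LOC686539 had differences of 2.68, 2.53, 2.37, 2.58 and 2.53. Each of these genes separated the classes by the rule that chose it.

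The medians of the neuronal and glial lists lay below 0, as did 54.7% of all tested loci. Of 29 measured excitatory neuron and synapse genes 28 had a negative difference and 0 counted as lower, with a median of -0.39 that was -0.13 in the sham libraries and -0.71 in the TBI libraries. The kinase Camk2a was at 1393, 1269 and 747 FPKM, against 1117 to 2220 (median 1651), and the transcription factor Neurod6 at 124, 83.2 and 43.9, against 94.1 to 143 (median 126). TBI 1 lay below every Col1a1-low library in both genes, and sham 2 lay inside their range. Without TBI 1 the median of the list was -0.13. Of 22 oligodendrocyte genes 20 had a negative difference (median -0.21), and of 19 astrocyte genes 17 (median -0.29), again with 0 counted as lower. The astrocyte filament Gfap was at 289.8, 308 and 190.5 FPKM, against 245 to 536, and the myelin gene Mbp at 2229, 2667 and 1773, against 2106 to 3754.

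Of the 8 loci counted as lower, 2 name a gene, Sfrp2 and Rgs14. Rgs14, a signalling regulator of CA2 pyramidal neurons, was at 26.7, 23.7 and 16.2 FPKM, against 28.7 to 62.1 (median 44.2), a difference of -1.08. Of 15 measured genes that mark hippocampal subfields, 12 had a negative difference (median -0.44), against 54.7% of all loci, and Rgs14 was the one counted as lower. Cpne4, a calcium-binding protein on the same list, was at 89.3 FPKM in sham 2, 47.9 in sham 4 and 29.6 in TBI 1, against 56.1 to 97.3. Sham 2 lay inside the Col1a1-low range and the other Col1a1-high libraries below it.

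**Figure D3:**
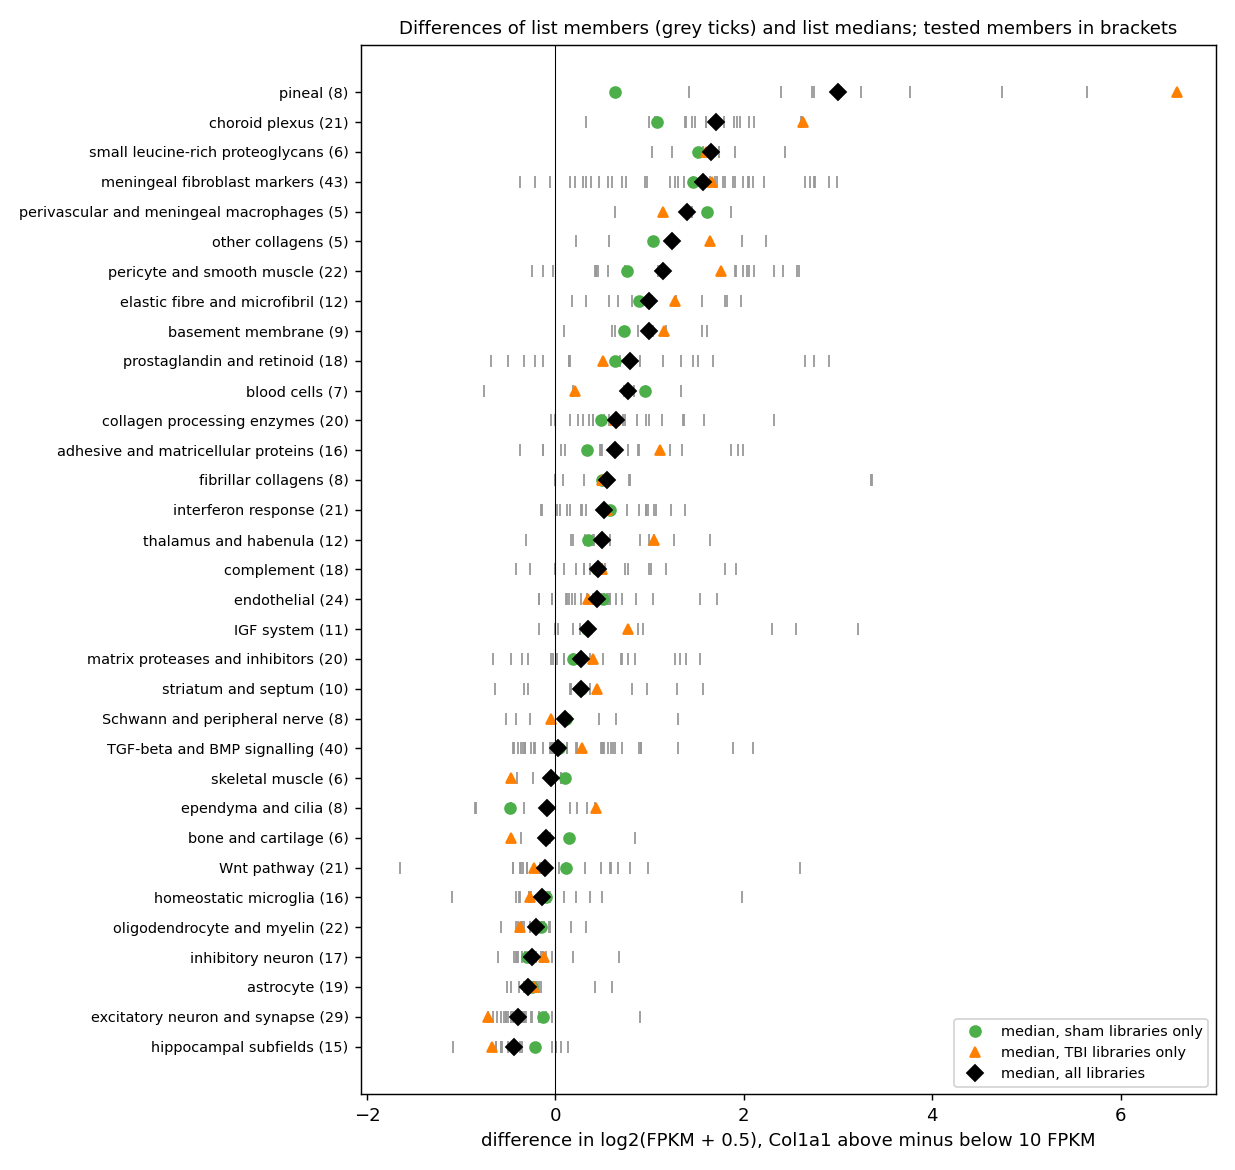
Differences in log2(FPKM + 0.5), Col1a1-high minus Col1a1-low, for the measured members of 33 gene lists (grey ticks), with list medians over all libraries (diamonds), sham libraries (circles) and TBI libraries (triangles). The proteoglycan and meningeal fibroblast lists have medians of 1.65 and 1.57 with both groups close together, while the pineal list stands at 0.64 in sham and 6.59 in TBI.

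The Col1a1-high libraries also differed from each other in genes of other structures, led by a pineal set in TBI 1. Tph1, which makes serotonin from tryptophan and is very abundant in the pineal gland, was at 1030 FPKM in TBI 1, 17.97 in sham 2, 0.0538 in sham 4 and at most 1.31 in the Col1a1-low libraries. The summed level of the pineal list was 1836 FPKM in TBI 1, 35.7 in sham 2, 1.91 in sham 4 and 1.42 to 5.91 in the Col1a1-low libraries. Asmt, which completes melatonin synthesis, was at 105 FPKM in TBI 1 and 0.658 to 2.30 in the other 9 libraries, and the photoreceptor and pineal transcription factor Crx was at 64.8 and at most 0.990. At 134 of the tested loci TBI 1 was over 4 times every other library, against 0 to 2 loci for each of the other 9. The pineal list had a median difference of 2.995, of 0.64 within sham and of 6.59 within TBI, and 0 of its 8 measured members counted as higher.

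Some of the 262 higher loci rested on the same library. At 10 of them TBI 1 was over 4 times the higher of sham 2 and sham 4, as it was at 166 of all 16889 tested loci. Bsx, a homeobox gene of the pineal gland and hypothalamus, was at 0.517 FPKM in sham 2, 0.0667 in sham 4 and 21.98 in TBI 1, against 0 to 0.0532. Complexin 3 (Cplx3), a regulator of release best known from retinal synapses, was at 2.61, 2.28 and 52.03, against 0.349 to 1.28. Without TBI 1 their differences were 0.50 and 1.33, while Col1a1 differed by 3.46 and Ptgds by 3.29. Of the 262 loci, 209 still counted as higher without TBI 1, and 220 with log2(Tph1 + 0.5) as a covariate. A covariate does not change the condition of no overlap, and leaving out a library only loosens it. These counts therefore rest on the size of the difference and, without TBI 1, on the filter. Thalamic and habenular genes stood out in the same library, with a summed level of 130.8 FPKM in TBI 1, 59.0 in sham 2, 65.9 in sham 4 and 46.9 to 65.6 in the Col1a1-low libraries. Their part in the differences above was not tested.

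**Figure D4:**
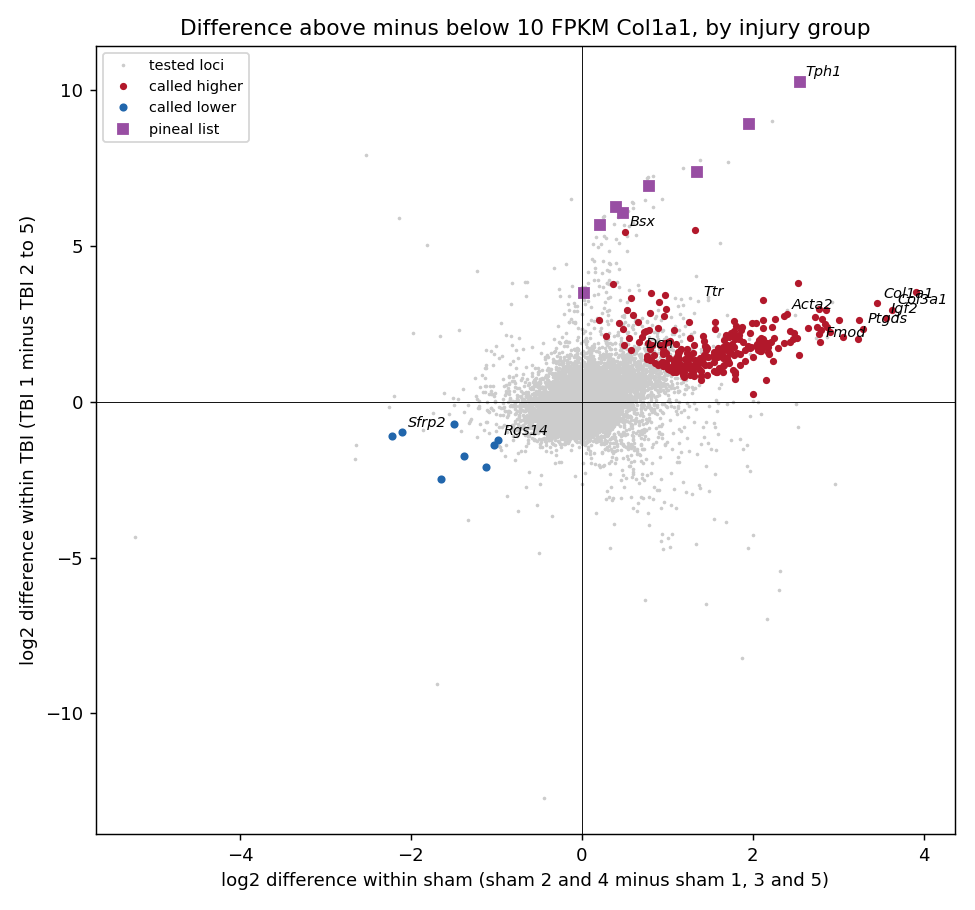
Log2 difference within the sham libraries (horizontal) against that within the TBI libraries (vertical) for all 16889 loci, with loci counted as higher in red, as lower in blue and the pineal list as purple squares. Col1a1, Col3a1, Igf2, Fmod and Ptgds lie far from 0 on both axes, whereas the pineal genes extend along the vertical axis, to 10.27 for Tph1.

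Choroid plexus, the epithelium that makes cerebrospinal fluid, formed a further difference that crossed the Col1a1 classes. Transthyretin (Ttr), its most abundant transcript, was at 31400 FPKM in sham 2 and 32233 in TBI 1 but at 56.2 in sham 4, and it ran from 34.5 to 17770 FPKM in the Col1a1-low libraries. Of the 7, sham 3, TBI 3, TBI 4 and TBI 5 held over 1000 FPKM of Ttr, and sham 1, sham 5 and TBI 2 held less. This threshold was chosen after the values were seen. The 21 measured choroid plexus genes had a median difference of 1.70, which was 0.50 with log2(Ttr + 0.5) as a covariate, and 1 of them counted as higher. With the same covariate 252 of the 262 higher loci were still higher by at least 1.

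The Ttr contrast within the 7 Col1a1-low libraries gives values to set beside the Col1a1 contrast, although both use those 7 libraries. Over all loci its median was -0.02, and 201 loci were higher in the Ttr-rich libraries without overlap and by at least 1, 1.19%. Col1a1 had a Ttr contrast of 0.20 beside a Col1a1 contrast of 3.35. Acta2 had 0.02 beside 2.57, Slc22a6 -0.21 beside 2.99 and Slc6a13 -0.14 beside 2.75. These genes were near 0 in the Ttr contrast. Igf2 had 3.19 beside 3.21, Slc13a4 2.72 beside 2.71 and Fmod 1.64 beside 2.43. With Ttr as a covariate the Col1a1 difference of Igf2 was 2.61, that of Slc13a4 2.18 and that of Fmod 2.11. Igf2, Slc13a4 and Fmod thus differed by over 1 unit along each of the divisions of the libraries, and they were not alone. Bmp7 had 1.65 beside 1.88, Mmp14 1.34 beside 1.32 and Crabp2 1.21 beside 2.74. Of the 262 loci counted as higher, 15 were also higher in the Ttr contrast without overlap and by at least 1, beside 1.19% of all loci. In that contrast the median of the 262 was 0.19, beside -0.02 over all loci. There 206 of the 262 lay within 0.5 of 0, but the share of all loci that did so was not computed. The 206 are therefore not read as unrelated to Ttr. Igfbp2 and Col8a1, which overlapped between the Col1a1 classes, had Ttr contrasts of 3.31 and 3.62.

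**Figure D5:**
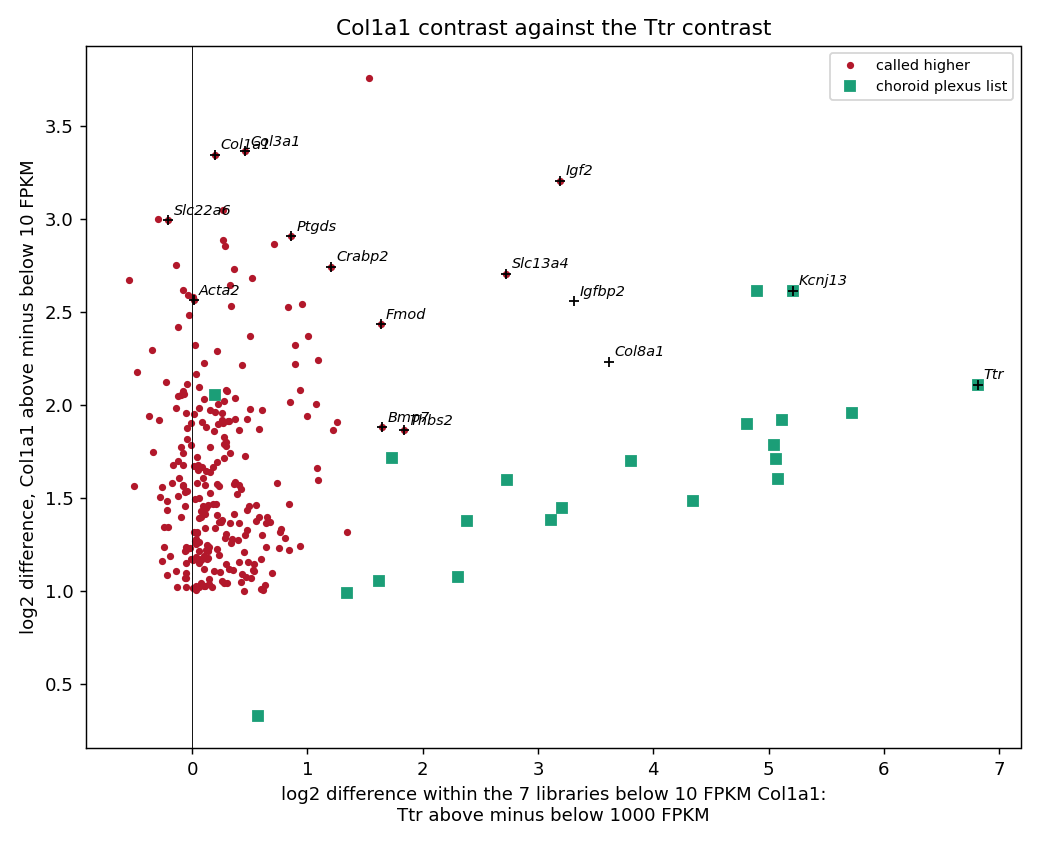
Log2 difference between Ttr-rich and Ttr-poor libraries within the 7 Col1a1-low libraries (horizontal) against the Col1a1-high minus Col1a1-low difference (vertical), for loci counted as higher (red points) and the choroid plexus list (green squares). Col1a1, Col3a1, Acta2 and Slc22a6 stand near 0 horizontally, Igf2 and Slc13a4 at 3.19 and 2.72, and Ttr at 6.82.

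Whether injured and sham hippocampus differ once the Col1a1 content is set aside was tested in a pair of fits with limma. Neither fit held a term for Ttr, which was not balanced over the injury groups. In the Col1a1-low class, sham 3, TBI 3, TBI 4 and TBI 5 were the Ttr-rich libraries. For genes that differed in the Ttr contrast, such as Igf2 and Fmod, injury and choroid plexus content are therefore not separated below. With the Col1a1 class as a term in a fit of all 10 libraries, 0 of 16889 loci passed an adjusted p under 0.05, a share of 0%, with adjusted p-values from 0.612 upward. Before adjustment 1309 loci had a p under 0.05, of which 649 were higher and 660 lower in the TBI libraries, and the fit without the class term had 477. The count of 1309 depended on the setting. It was 536 without TBI 1, 804 with log2 Col1a1 as the content term and 2222 without sham 1. With Ttr as a further covariate it was 709, and 0 loci passed after adjustment. These unadjusted counts are not read as an injury effect. Col1a1 made the class term, so its own injury value in this fit is not used. Other genes that follow the class did not pass in limma's fit: Fmod differed by 0.74 between TBI and sham (SE 0.44, 95% interval -0.25 to 1.72, adjusted p = 0.626), Col3a1 by 0.39 (SE 0.31), Igf2 by 1.19 (SE 0.81) and Acta2 by 0.24 (SE 0.19).

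Within the 7 Col1a1-low libraries, 3 sham and 4 TBI, 0 of 16621 loci passed in limma's test, again 0%, and 654 had an unadjusted p under 0.05. The smallest adjusted p was 0.0506, shared by Plac9 and the unnamed locus XLOC_001089, which are named because they had the smallest p. Plac9, a small secreted protein, was at 25.3, 31.7 and 36.9 FPKM in sham 1, sham 3 and sham 5 and at 0.882 to 3.14 in the 4 TBI libraries, a log2 difference of -3.89 (SE 0.36). The Col1a1-high libraries were not in that fit, and there Plac9 was at 43.2 FPKM in sham 2, 4.22 in sham 4 and 3.09 in TBI 1. XLOC_001089 was at 1.79, 1.26 and 1.30 FPKM in the sham libraries and listed at 0 in the TBI libraries, a difference of -1.95 (SE 0.16) on the log2(FPKM + 0.5) scale, but it was also listed at 0 in sham 2 and was at 3.75 in sham 4. Within this class Cldn5 differed by -0.41 (SE 0.08, limma's adjusted p = 0.995). With a pseudocount of 1, quantile normalization, median scaling or array weights both Plac9 and XLOC_001089 passed in limma's test, with adjusted p-values from 0.0208 to 0.0473. In the fits of this class that left out 1 library, neither passed.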

How the data were processed

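Poly-A RNA of 10 rat hippocampus libraries, 5 sham and 5 TBI by the labels, was sequenced with an Illumina instrument. The values the authors deposited are FPKM at 25269 loci. TopHat, TopHat2, Bowtie, Bowtie2, Cufflinks, Cuffdiff and the rn5 build are named, per the submitters' processing notes, without roles or versions, and for the annotation nothing is given in the sources used here. All values carry no strand, which leaves a gene and an overlapping or antisense partner inseparable. Whole reads could not be recovered, so depth is unknown and no count test was run. No 2 columns were identical.

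Values were used as log2(FPKM + 0.5) for loci with a mean of at least 0.5 FPKM. The Col1a1 contrast is a least-squares difference with injury as covariate and carries no test. Injury was tested with limma 3.58.1 in R 4.3.3 (mean trend, two-sided, Benjamini-Hochberg adjusted p under 0.05), a procedure tested on simulated data. The classes, the members and all gene lists were chosen with earlier results of these data known. The named genes are the 5 markers, the 30 single-gene loci of at least 1 FPKM with the largest differences among those counted as higher, up to 15 among those lower, up to 4 list members by level and up to 4 by difference, and 8 cell markers. Of 691 list members over 33 lists, 616 were in the table and 523 passed the filter. Where a name stands on several loci the most abundant was used, a rule set after the table was seen. Older symbols such as Wisp2 were matched to list names. Promoters are from RefSeq on GRCr8. Alternatives covered the pseudocount, filter, scaling, covariates, class rule, pairing and each library left out, and the Tph1 covariate was chosen after seeing the data.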

Additional observations from a re-analysis of the deposited data

Results flagged for a closer look

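Within each group of 5 libraries, the gap of the highest or lowest library to its nearest neighbour was divided by the range of the group, for 46 levels or summed list levels. Of 92 such tests, 21 passed the 95% critical value of Dixon's test, where chance gives about 1 in 20, and 16 of the 21 were TBI 1. Col1a1 put TBI 1 alone in its class among the TBI libraries, so its own value there was fixed by the split. Without Col1a1 the count was 20 of 90, with 15 in TBI 1. Genes and lists that follow Col1a1 are not independent of the split or of each other, so these counts are not read against chance.

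Among the TBI libraries, TBI 1 was the high library for Col1a1 (ratio 0.959), Col3a1 (0.955), Dcn (0.813), Acta2 (0.962) and Mrc1 (0.809). The summed lists with the same library high were other collagens (0.781), basement membrane (0.723), small leucine-rich proteoglycans (0.841), elastic fibre and microfibril (0.870), meningeal fibroblast markers (0.720), prostaglandin and retinoid genes (0.721), endothelial genes (0.806), and pericyte and smooth muscle genes (0.758). Ptgds, at 2255 FPKM in TBI 1, made up most of the meningeal fibroblast sum of 3322 FPKM there. It also made up most of the prostaglandin and retinoid sum of 2468 FPKM, so both of these flags rest largely on the same gene. TBI 1 also stood apart for thalamus and habenula (0.781), striatum and septum (0.809) and pineal genes (0.998).

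Among the sham libraries, sham 4 stood apart as high for Col3a1 (0.729) and Mrc1 (0.783). Sham 2 did so for the summed Wnt pathway (0.769) and pineal lists (0.980). Sham 1 did so for the inhibitory neuron list (0.839). Col1a1 itself gave no such flag among the sham libraries, where 2 of 5 were high.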

How the results depend on the processing

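The class difference of 220 named genes was computed under 20 other settings, 4400 values in all. Of these, 4225 moved by less than 1 residual SD. A change of filter could not move a difference, so the 220 values of each filter setting are among them by construction. The residual SD is also a wide measure for variable genes: that of Ttr was 4.10, so Ttr could change sign within it. The sign changed in 117 values of 51 genes, 40 of them with Tph1 as a covariate, 20 without TBI 1 and 17 with the replicate block. In 7 genes the difference had been at least 1, and in each the change came with the Tph1 covariate. Bsx, the one of them counted as higher, was then at -0.18, Ttr at -0.58, Clic6 at -0.26, Sostdc1 at -0.31, Gngt1 at -0.16, Asmt at -0.69 and Crx at -0.26. The 262 higher and 8 lower loci were 315 and 12 with a pseudocount of 0.1. Classes made from the mean of all 5 markers, Col1a1 among them, held the same libraries. That setting could therefore only repeat the 262 and 8. Leaving out 1 library at a time gave 243 to 576 higher and 7 to 36 lower loci. The 576 came without sham 4, and lower loci numbered 14 without sham 1, 35 without sham 2, 36 without sham 4 and 22 without TBI 1. With fewer libraries in a class, loci separate the classes more easily. Scaling by quantiles or medians moved the median difference of all loci from -0.03 to -0.06 and -0.07.

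The injury fit with the class term called 0 or 1 loci when 1 library was left out. The 1 was Plac9 without sham 4 (log2 difference -3.83, limma adjusted p = 0.00860). Within the Col1a1-low libraries 2 loci passed with a pseudocount of 1, with quantile normalization, with median scaling or with array weights, namely Plac9 and XLOC_001089. Without a filter 2 passed as well, but they were XLOC_001089 and Asb16, which differed by only -0.21. Without a mean trend 1 passed, XLOC_001089. Leaving out a library there gave 0 or 1, and the 1 was XLOC_003186 without sham 1. The causes were not tested.

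Libraries of the same number were not paired by their deviations from the group means: the correlations for numbers 1 to 5 were 0.01, -0.31, 0.06, -0.07 and 0.32, and only number 5 matched its own number best. With the number as a replicate block, 288 loci counted as higher and 9 as lower, and the injury fit called 0. Low genes are limited by the added 0.5 and by an unknown read depth, and the median half-width of the 95% interval of an injury difference was 0.31 with the class term.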

Other observations

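TBI 1 carried further transcripts at levels no other library reached, chosen here after their values were seen as those highest relative to the other libraries. The lipoxygenase Alox15 was at 195.9 FPKM in TBI 1, 3.04 in sham 2 and at most 1.07 elsewhere. The photoreceptor genes Rbp3, which encodes a retinoid carrier, and Pdc, which encodes phosducin, were at 81.3 and 127 FPKM in TBI 1 and at 1.16 and 2.20 in sham 2. The peptide hormone gene Oxt was at 61.7 FPKM in TBI 1 and at most 0.824 in the other 9 libraries. In sham 2 the levels of Tph1, Crx, Rbp3 and Pdc were 1.74%, 1.53%, 1.43% and 1.73% of those in TBI 1, and that of Oxt was 0.782%.

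Lists for tissues that border the skull were not higher by their medians, while 1 summed list was. Skeletal muscle had a median difference of -0.05 over 6 measured genes and bone and cartilage -0.10 over 6, with 0 counted as higher in either. The summed bone and cartilage list was at 12.28, 14.19 and 14.43 FPKM in sham 2, sham 4 and TBI 1. That lay above the 9.68 to 12.23 FPKM of the Col1a1-low libraries, narrowly in sham 2. The skeletal muscle sums of the classes overlapped. Schwann cell and peripheral nerve genes had a median of 0.11 over 8, with 1 counted as higher (12.5%, beside 1.55% of all loci). It was Fxyd2, a regulator of the sodium pump, which passed the filter only through the Col1a1-high libraries. Its difference within the TBI libraries was 0.24. Ependymal and cilia genes had a median of -0.09 over 8, which was -0.49 in the sham libraries and 0.43 in the TBI libraries.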
